A study of Mus musculus with 2 samples.

Results

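The 9 genes described here are TALE homeobox genes: Meis1, Meis2 and Meis3, Pbx2, Pbx3 and Pbx4, Pknox1 and Pknox2, and Tgif1. They were taken by symbol, from a list drawn up with earlier results of these data known, out of the 43346 genes quantified in embryonic mouse hindbrain. Total RNA of whole hindbrains of strain B6NCrl, at 14.5 days of embryonic age, was sequenced in 2 libraries that form 1 group. No treatment, mutation or transgene is named in the labels, and no second condition was analysed here. The labels describe each library as 1 hindbrain of 1 pup, although they also give the sex as pooled and the same donor identifier to both, and the collection dates differ between the replicates. Age and strain are shared, and any effect of the collection date is confounded with the replicate.

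TALE proteins are homeodomain transcription factors named for extra amino acids in a loop of the homeodomain. Pbx proteins bind DNA beside Hox proteins, and Meis and Pknox proteins bind Pbx, which helps Pbx enter and stay in the nucleus. In the vertebrate hindbrain, complexes of Hox, Pbx and Meis proteins control the Hox genes and other genes that give the rhombomeres, its segments, their identity. Tgif1 has a TALE homeodomain too, but is known as a repressor that limits retinoic acid and TGF-beta signalling.

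The depth was 34929425 expected counts in replicate 1 and 33510896 in replicate 2, each a read estimate by the authors. By 3 counts of the total, a count of 0 in replicate 1 allows 0.0859 CPM and one in replicate 2 allows 0.0895 CPM, for counting error only. Of 8 hindbrain markers, 6 reached 1 TPM, a length-scaled share of all transcripts, in both replicates; Ptf1a had 0.4 and 0.62 TPM, and En2 had 0.05 and 0.79 TPM. Of 6 forebrain markers 1 did, Lhx2, with 10.42 and 15.12 TPM, and Emx1 was at 0. The tissue also held other cells: 5 of 5 meningeal or fibroblast markers were detected, with summed levels of 730.41 and 605.18 TPM in replicates 1 and 2, as were 4 of 4 endothelial, 3 of 3 microglial and 3 of 3 red cell markers. The 3 choroid plexus markers summed to 1880.24 and 1129.97 TPM. In such bulk samples, fewer cells of a type and less RNA per cell cannot be told apart.

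The homeobox is the stretch that makes these genes a family, and the third helix of the homeodomain lies in the major groove of DNA. Other parts of the homeobox were not compared. The 63 coding bases around that helix are given for each gene from the GENCODE M21 transcripts (GRCm38, the assembly also called mm10), read 5′ to 3′ on the coding strand. The capitals mark the 12 bases of the helix core, found in frame in the coding sequence by the codons of its conserved WFXN motif.
Meis1: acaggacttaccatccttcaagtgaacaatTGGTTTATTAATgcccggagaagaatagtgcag
Meis2: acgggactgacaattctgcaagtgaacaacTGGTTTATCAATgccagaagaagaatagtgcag
Meis3: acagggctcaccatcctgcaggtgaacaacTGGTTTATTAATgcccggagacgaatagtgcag
Pbx2: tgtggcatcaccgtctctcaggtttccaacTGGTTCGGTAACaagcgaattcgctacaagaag
Pbx3: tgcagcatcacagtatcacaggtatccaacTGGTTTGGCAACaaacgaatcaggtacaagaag
Pbx4: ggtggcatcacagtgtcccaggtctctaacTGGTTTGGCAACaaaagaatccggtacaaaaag
Pknox1: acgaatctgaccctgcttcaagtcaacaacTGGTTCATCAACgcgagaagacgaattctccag
Pknox2: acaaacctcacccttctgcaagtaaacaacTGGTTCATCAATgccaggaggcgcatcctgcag
Tgif1: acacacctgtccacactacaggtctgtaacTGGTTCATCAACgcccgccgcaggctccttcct
The third codon of the capitals was GGT or GGC in all 3 Pbx genes and ATT or ATC in the other 6. Within Meis, 84.1% to 90.5% of the 63 bases were identical between pairs, against 79.4% to 84.1% within Pbx and 79.4% between Pknox1 and Pknox2. The 29 pairs across families shared 39.7% to 77.8%. In all 9 genes 1 intron interrupts the stretch. It lies after base 32 in the Meis and Pknox genes and after base 21 in the Pbx genes and Tgif1, counted from the 5′ end of the stretch. The stretch spans chr11:18885621-18905720 in Meis1 and chr8:69866583-69870070 in Pbx4, introns included.

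All 9 genes were detected, meaning at least 1 TPM in both replicates, against 34.8% of the 43346 genes; given how the list was drawn up, nothing is read from that difference. TPM is scaled for transcript length, so levels can be set side by side between genes as far as the transcript models hold. Pbx4-202 and Pbx4-205, the largest transcripts of Pbx4, are short models of 375 and 931 bases. By expected counts Pbx4, with 587 and 500 in replicates 1 and 2, was below Pknox1, with 2837 and 2730. The median level of the 9 was 44.7 TPM, against 17.2 TPM over the 15088 detected genes and 0.105 TPM over all genes. Levels ran in the order Meis1, Pbx3, Meis2, Meis3, Pbx4, Pknox1, Pknox2, Tgif1 and Pbx2. In that order only Pbx3 and Meis2 overlapped in their replicate values; the other neighbours were separate in both libraries. With 2 values a gene, an exact permutation test cannot go below p = 0.333, so no test between genes was made.

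**Figure D1:**
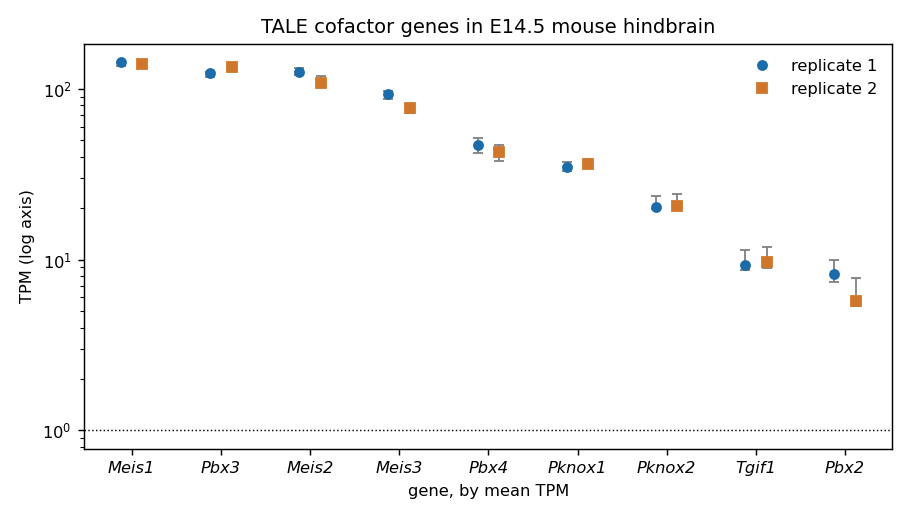
Level of each gene in TPM on a log axis, in replicate 1 (circles) and replicate 2 (squares), with the authors' credibility intervals as grey bars; the dotted line marks 1 TPM. The genes span 141.3 TPM for Meis1 to 6.99 TPM for Pbx2, and the replicates lie close together beside that span.

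Meis proteins bind Pbx through their N-terminal part and DNA through the homeodomain. Meis1 (ENSMUSG00000020160.14, chr11:18879817-19018985, minus strand) had 142.55 TPM in replicate 1 and 139.99 TPM in replicate 2, a mean of 141.3 ± 1.81 TPM (SD, n = 2). It was the highest of the 9 and stood above 92.4% of detected genes. Meis2 (ENSMUSG00000027210.16, chr2:115863064-116065839, minus strand) had 125.56 and 108.59 TPM, a mean of 117.1 ± 12.0 TPM (SD, n = 2), and was lower in replicate 2. Meis3 (ENSMUSG00000041420.14, chr7:16175090-16186504, plus strand) had 93.26 and 77.09 TPM, a mean of 85.2 ± 11.4 TPM (SD, n = 2), and was lower in replicate 2 as well. Of the summed Meis level, Meis1 held 41.2% ± 2.50, Meis2 34.0% ± 0.991 and Meis3 24.7% ± 1.51 (SD, n = 2), so no single gene held most of it. By expected counts, which are not scaled for transcript length, the Meis3 share was 14.9%.

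Pbx proteins are the direct partners of Hox proteins. Pbx3 (ENSMUSG00000038718.11, chr2:34171457-34373142, minus strand), which in mouse is needed for the brainstem control of breathing, had 123.17 and 134.11 TPM, a mean of 128.6 ± 7.74 TPM (SD, n = 2). Pbx4 (ENSMUSG00000031860.13, chr8:69832491-69872292, plus strand) had 46.97 and 42.5 TPM, a mean of 44.7 ± 3.16 TPM (SD, n = 2). Pbx2 (ENSMUSG00000034673.10, chr17:34591266-34597400, plus strand) had 8.24 and 5.73 TPM, a mean of 6.99 ± 1.77 TPM (SD, n = 2), the lowest of the 9. Unlike Meis, the level of these 3 Pbx genes was uneven: Pbx3 held 71.3% ± 3.18 of their sum, Pbx4 24.8% ± 2.14 and Pbx2 3.88% ± 1.04 (SD, n = 2). By expected counts the Pbx4 share was 7.41% and the Pbx3 share 87.8%.

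Pknox proteins, also called Prep, bind Pbx as Meis proteins do. Pknox1 (ENSMUSG00000006705.8, chr17:31564734-31607693, plus strand) had 34.88 and 36.34 TPM, a mean of 35.6 ± 1.03 TPM (SD, n = 2). Pknox2 (ENSMUSG00000035934.11, chr9:36890982-37147407, minus strand) had 20.31 and 20.49 TPM, a mean of 20.4 ± 0.127 TPM (SD, n = 2). Pknox1 held 63.6% ± 0.527 of their sum (SD, n = 2), which varied less between replicates than the Meis and Pbx shares. The summed level of Meis was 361.37 and 325.67 TPM, while that of Pknox was 55.19 and 56.83 TPM. Tgif1 (ENSMUSG00000047407.13, chr17:70844205-70853546, minus strand) had 9.27 and 9.61 TPM, a mean of 9.44 ± 0.240 TPM (SD, n = 2), below most detected genes: 35.4% of them were lower.

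The partners and related genes were read from lists. Of 8 further TALE homeobox genes, 7 were detected, at a median level of 6.59 TPM over the list. The highest was Irx2, of the Iroquois group that patterns the neural tube, with 22.8 ± 5.11 TPM, followed by Tgif2, a repressor related to Tgif1, with 16.1 ± 1.70 TPM, and Irx5 with 10.4 ± 2.23 TPM (SD, n = 2). All 3 were below Pknox1. Of the 15 Hox genes of paralog groups 1 to 5, the groups whose domains reach the hindbrain, 13 were detected, at a median of 18.5 TPM. Hoxa5 had 141.6 ± 0.304 TPM, Hoxb5 118.6 ± 8.06 TPM and Hoxc4 65.8 ± 7.47 TPM (SD, n = 2), so the highest Hox genes were at the level of Meis1 and Pbx3. The only Hox genes below 1 TPM in both replicates were Hoxd1, with 0.5 and 0.61 TPM, and Hoxb1, the gene of the fourth rhombomere, with 0.26 and 0.45 TPM.

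Of 13 transcription factors that are known to work with TALE proteins outside the Hox family, 9 were detected, at a median of 2.65 TPM over the list. The nuclear receptors Nr2f2 and Nr2f1 had 67.5 ± 6.68 and 51.9 ± 2.04 TPM, and Pax6, which acts in the rhombic lip and its granule cell precursors, had 22.0 ± 1.10 TPM (SD, n = 2). En2 and the muscle factors Myog and Myod1 were below 1 TPM in both replicates. All 19 coregulators were detected, at a median of 38.3 TPM; the corepressor Ctbp1 had 341.3 ± 16.0 TPM, the deacetylase Hdac2 319.2 ± 7.74 TPM and the corepressor Ncor1 154.2 ± 3.16 TPM (SD, n = 2). Of 12 genes listed as targets of Hox and TALE proteins, 8 were detected, at a median of 17.7 TPM. Whether each of them is a target in the hindbrain was not tested. The receptor Epha4 had 39.1 ± 1.01 TPM, Hoxb2 32.9 ± 1.33 TPM and Hoxa2 25.5 ± 3.91 TPM (SD, n = 2), while Hoxb1 and Meox1, which had 0.7 and 0.5 TPM, were among those below 1 TPM.

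**Figure D2:**
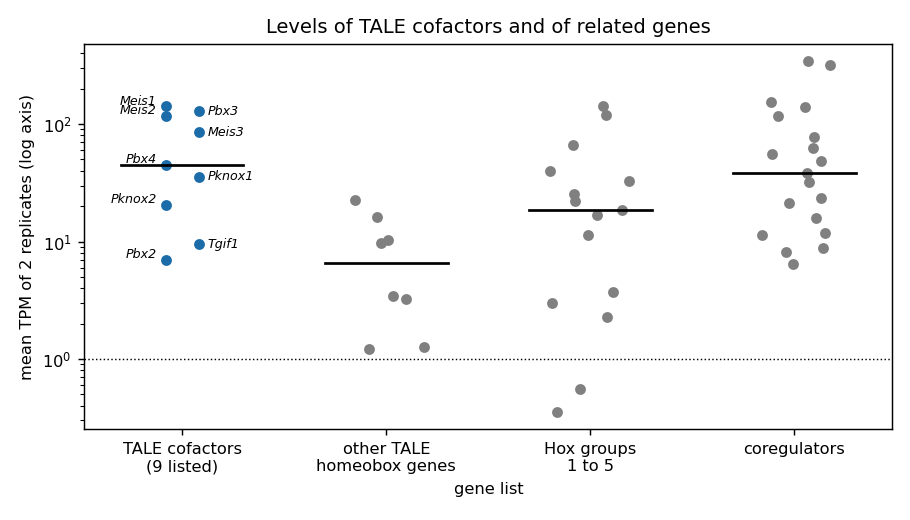
Mean TPM of the 2 replicates on a log axis for each gene of 4 lists, with the median of each list as a bar and 1 TPM as a dotted line. The 9 TALE cofactors (blue, named) have a median of 44.7 TPM, against 6.59 for the other TALE homeobox genes, 18.5 for Hox groups 1 to 5 and 38.3 for the coregulators.

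Transcript levels showed what the gene levels did not. The authors' files list 92 transcripts of the 9 genes, and 29 of them held at least 5% of their gene's TPM. Grouping transcripts by the exons they hold and by the homeobox was chosen after the transcript values were seen, so these shares are descriptions. Exon structures are those of M21, in which 27 of the 29 transcripts have the length used by the authors.

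In Meis1, Meis1-201, with a coding sequence of 1170 bases, had 69.95 and 76.03 TPM, or 51.7% ± 3.71 of the gene (SD, n = 2). Meis1-203, annotated as a processed transcript with no coding sequence, had 52.48 and 50.74 TPM, or 36.5% on average. It starts in an exon of its own at chr11:19011976-19012002 on the minus strand, inside the gene.
Meis1-203 first exon: agctgcacttagactgaagtattttga
In both replicates this transcript was the second largest of the gene, so gene-level Meis1 TPM exceeded the TPM of transcripts annotated to code for Meis1.

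Meis1 and Meis2 both have a 95-base exon after the homeobox, whose skipping changes the C-terminal tail of the protein. In Meis1 it is exon 12 of 13 at chr11:18883988-18884082, and in Meis2 exon 12 of 13 at chr2:115866810-115866904, both on the minus strand. With the exon the coding sequence is 1170 bases in Meis1 and 1203 in Meis2; without it, it is 1395 and 1431. The coding part is 56 bases in each gene, shown because it is nearly the same while its use was not; capitals mark the bases that differ.
Meis1 exon 12: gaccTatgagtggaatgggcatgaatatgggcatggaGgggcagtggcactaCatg
Meis2 exon 12: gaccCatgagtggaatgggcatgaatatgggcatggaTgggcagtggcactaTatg
Of these bases 53 of 56 were identical, or 94.6%. In Meis1, transcripts with the exon held 97.4% and 97.0% of the TPM of those that either hold or skip it. In Meis2 they held 71.0% and 70.7%. Transcripts without the exon thus made up 2.80% of that TPM in Meis1 and 29.1% in Meis2 on average, and the replicates of the 2 genes did not overlap. The SD was 0.223 percentage points in Meis1 and 0.208 in Meis2 (n = 2). In Meis1 those without it were mostly Meis1-207, annotated for nonsense-mediated decay, with 2.81 and 3.05 TPM. Meis1-209, which codes without the exon, had 0.51 and 0 TPM. Those with it included Meis1-203, which has no coding sequence, so the Meis1 shares describe RNA and not protein forms.

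Single Meis2 transcripts were far less stable. Meis2-202 had 26.61 and 29.13 TPM, and its replicates were close. Meis2-205 had 37.1 and 10.36 TPM, Meis2-203 had 27.51 and 0.57 TPM, Meis2-201 had 3.64 and 28.39 TPM, and Meis2-206 had 2.73 and 26.14 TPM. The first pair was high in replicate 1 and the second pair in replicate 2. Their credibility intervals overlapped between replicates: Meis2-203, for example, ran over 3.92 to 30.9 TPM in replicate 1 and 1.46 to 24.2 TPM in replicate 2. These transcripts share most of their exons, and their single levels are poorly determined. Summed by exon, the values were close: transcripts with exon 12 had 77.58 and 69.98 TPM, and those without it 31.65 and 28.96 TPM. The share that starts at the distal first exon, chr2:116064802-116065839, was also steady at 67.9% and 67.6%.

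A further choice in Meis2 adds 21 bases at the end of exon 11, downstream of the homeobox stretch, at chr2:115867359-115867379 on the minus strand, which makes the coding sequence 1203 rather than 1182 bases.
Meis2 21 bases: gttttcttcttgatccttcag
Transcripts with these bases held 46.4% and 42.8% of the TPM, a mean of 44.6% ± 2.50 (SD, n = 2), so both forms were common. By expected counts the mean was 46.0% ± 7.09 (SD, n = 2), a wider spread.

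In Meis3, Meis3-201 had 44.44 and 34.77 TPM, or 46.4% of the gene on average. The retained intron transcript Meis3-202 had 16.09 and 14.66 TPM, Meis3-205 had 13.86 and 12.99 TPM, Meis3-203 had 4.99 and 6.15 TPM and the retained intron transcript Meis3-209 had 5.31 and 5.78 TPM. Meis3-201 and Meis3-205 differ by 51 bases at the start of exon 6, chr7:16178951-16179001 on the plus strand, in the 5′ part of the coding sequence.
Meis3 51 bases: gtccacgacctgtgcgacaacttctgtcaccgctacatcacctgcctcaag
Transcripts with the 51 bases held 76.4% and 72.8% of the TPM of those that hold or skip them, a mean of 74.6% ± 2.56 (SD, n = 2), and the skipped form has a coding sequence of 1083 rather than 1134 bases.

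Pbx3 was split between 2 coding transcripts. Pbx3-202 had 72.06 and 75.23 TPM, or 57.3% ± 1.71 of the gene (SD, n = 2), and Pbx3-201 had 42.14 and 46.08 TPM, or 34.3% on average. They differ by a 113-base exon, exon 7 of 9 at chr2:34176749-34176861 on the minus strand, downstream of the homeobox. The form without it, known as Pbx3b, has a coding sequence of 1053 bases against 1302 and so a shorter C-terminal tail.
Pbx3 exon 7: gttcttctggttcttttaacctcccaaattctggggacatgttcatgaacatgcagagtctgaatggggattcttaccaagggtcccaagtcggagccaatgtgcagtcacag
The exon was held by 37.8% and 39.8% of the TPM, a mean of 38.8% ± 1.39 (SD, n = 2), so the shorter form was the larger share in both replicates.

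Pbx4 stood apart in what its transcripts contain. The transcript with the full coding sequence of 1134 bases, Pbx4-201, had 0.91 and 0.53 TPM, from 28.51 and 14.99 expected counts. The level of Pbx4 came from shorter transcripts. Pbx4-202, of 375 bases, had 17.18 and 13.58 TPM. It is annotated as protein-coding, with a coding sequence of 326 bases. Its model of 3 exons does not hold the homeobox stretch, and whether its RNA extends beyond the model was not tested. Pbx4-205, annotated as a target of nonsense-mediated decay, had 12.93 and 10.02 TPM, and the retained intron transcript Pbx4-206 had 6.75 and 5.4 TPM. Pbx4-204 and Pbx4-209, both annotated for nonsense-mediated decay, had 2.42 and 8.7 TPM and 3.32 and 1.92 TPM. Pbx4-202, Pbx4-204 and Pbx4-205 all skip exons 3 and 4, at chr8:69864312-69864550 and chr8:69864824-69865014 on the plus strand. Both exons lie in the coding sequence upstream of the homeobox stretch and are shown because most Pbx4 RNA lacked them.
Pbx4 exon 3: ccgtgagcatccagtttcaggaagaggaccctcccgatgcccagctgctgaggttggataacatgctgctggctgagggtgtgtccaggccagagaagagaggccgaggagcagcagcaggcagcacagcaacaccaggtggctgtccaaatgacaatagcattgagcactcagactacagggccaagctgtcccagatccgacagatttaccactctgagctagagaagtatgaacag
Pbx4 exon 4: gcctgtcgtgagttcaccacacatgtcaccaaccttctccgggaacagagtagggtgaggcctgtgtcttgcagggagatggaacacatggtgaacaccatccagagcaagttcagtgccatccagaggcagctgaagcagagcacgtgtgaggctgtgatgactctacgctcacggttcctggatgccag
Transcripts with the exons held 2.72% and 1.61% of the TPM of those that hold or skip them, a mean of 2.17% ± 0.783 (SD, n = 2). By expected counts, which give less weight to short transcripts, they held 5.59% ± 2.24 (SD, n = 2). The skipping form was the larger one in both replicates under both measures. The gene had 587 and 500 expected counts in all, the depth behind these shares.

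**Figure D3:**
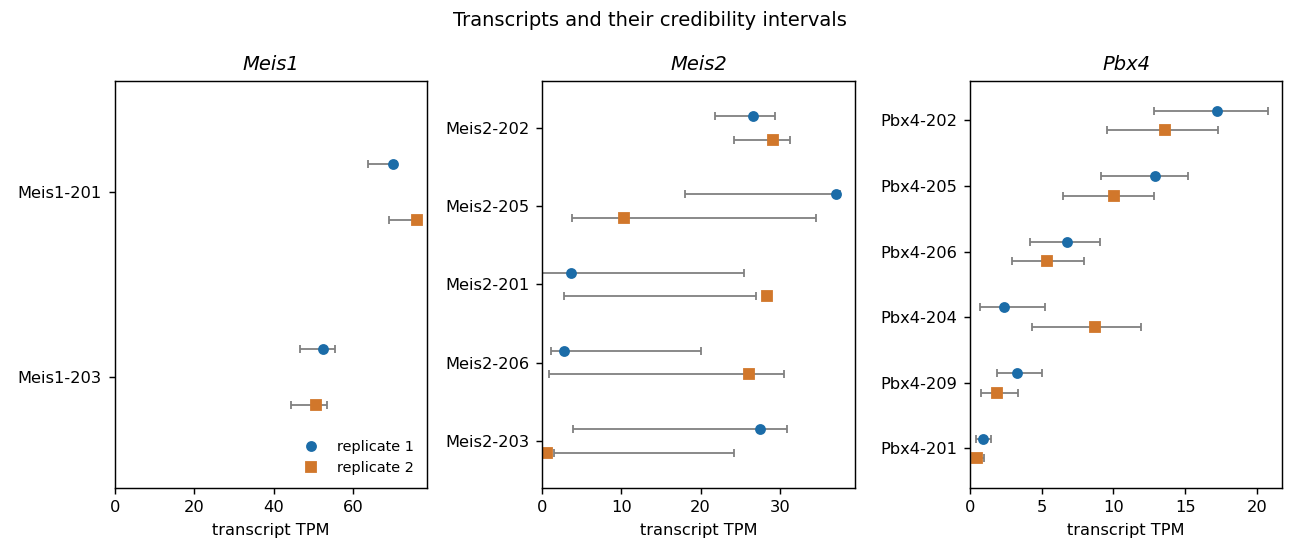
Transcript levels in TPM (linear axes) for Meis1, Meis2 and Pbx4 in replicate 1 (circles) and replicate 2 (squares), with the authors' credibility intervals as grey bars, for transcripts that hold at least 5% of the gene and for Pbx4-201. Meis2-201, Meis2-203, Meis2-205 and Meis2-206 change places between replicates within wide intervals, while Pbx4-201 stays at 0.91 and 0.53 TPM.

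In Pknox1 a single transcript reached 5% of the gene: Pknox1-201 held 89.7% ± 1.39 of Pknox1 (SD, n = 2), with 30.94 and 32.95 TPM. Pknox2-201 had 13.86 and 15.32 TPM and Pknox2-202 had 4.45 and 3.61 TPM, 71.5% and 19.8% of Pknox2 on average. For Pknox1-201 and Pknox2-201 the length differed between the authors' annotation and M21. Tgif1-201 had 4.65 and 3.49 TPM, Tgif1-202 had 2.9 and 1.89 TPM, Tgif1-207 had 0.38 and 0.96 TPM and Tgif1-210 had 0.25 and 0.95 TPM. The proximal first exon of Tgif1, chr17:70850872-70851207, was held by 61.6% and 69.8% of the TPM of the transcripts compared. Pbx2-201 had 4.34 and 4.7 TPM, Pbx2-203 had 2.59 and 0.62 TPM and Pbx2-204 had 1.32 and 0.4 TPM. The share of Pbx2-201 was 67.4% ± 20.9 (SD, n = 2), too variable to fix the mix of forms.

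**Figure D4:**
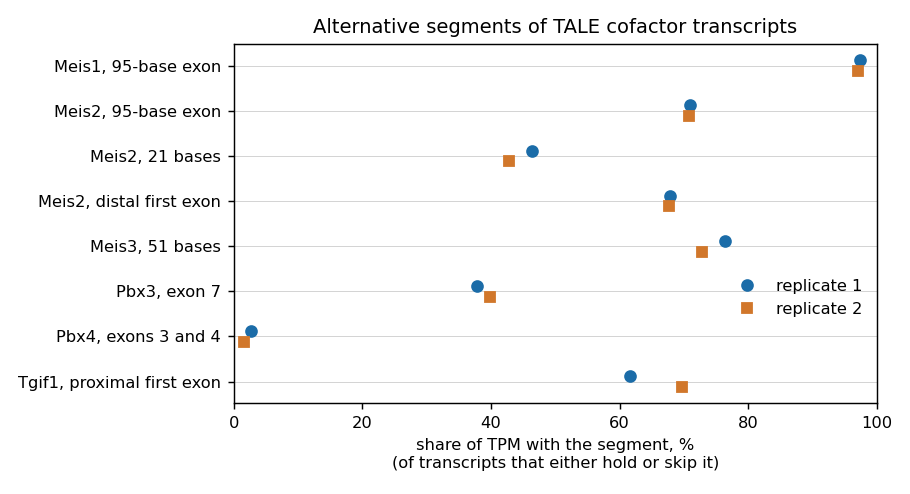
Share of TPM, in percent, of transcripts that hold each alternative segment among those that either hold or skip it, in replicate 1 (circles) and replicate 2 (squares). The 95-base exon is at 97.4% and 97.0% in Meis1 and at 71.0% and 70.7% in Meis2, and exons 3 and 4 of Pbx4 are at 2.72% and 1.61%.

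When each gene was read by its protein-coding transcripts that hold the homeobox stretch, the order changed. Pbx3 was first with 114.2 and 121.31 TPM, a mean of 117.8 ± 5.03 TPM, or 91.6% of the gene (SD, n = 2). Meis2 followed with 104.55 and 96.8 TPM, a mean of 100.7 ± 5.48 TPM, or 86.2% of the gene (SD, n = 2). Meis1 had 72.99 and 78.01 TPM, 53.5% ± 3.20 of the gene, and was below Meis2 in both replicates, although its gene level was above it in both. Meis3 had 58.3 and 47.76 TPM, or 62.2% ± 0.407 of the gene (SD, n = 2).

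Pknox1 with 32.48 and 34.22 TPM, Pknox2 with 18.89 and 18.93 TPM, Tgif1 with 8.3 and 7.84 TPM and Pbx2 with 6.93 and 5.32 TPM kept most of their level, 93.6%, 92.7%, 85.5% and 88.5% of the gene on average. Pbx4 was last, with 0.91 and 0.53 TPM, or 1.59% ± 0.488 of its gene (SD, n = 2). By expected counts the share was 3.93%. Pbx4-202, with 34.3% of the gene on average, is annotated as protein-coding too. Its short model does not hold the stretch, so it is not counted in these values. Counted over all transcripts, coding or not, the homeobox stretch was in 34.7% ± 4.36 of Pbx4 TPM and in 92.4% ± 3.36 of Meis1 TPM (SD, n = 2). Most of the difference in Meis1 therefore lay in Meis1-203, which holds the stretch in its RNA without an annotated coding sequence. Whether any of these transcripts is translated was not measured.

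**Figure D5:**
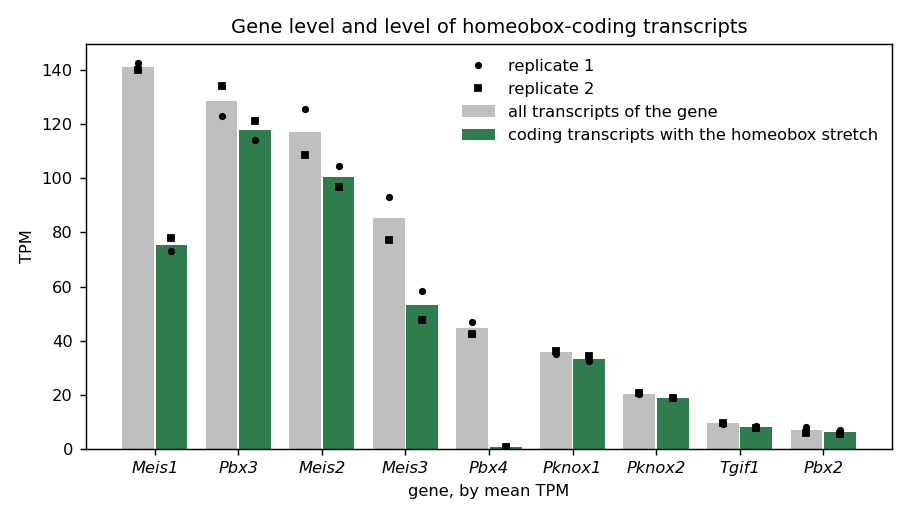
Mean TPM (bars, axis from 0) of all transcripts of each gene (grey) and of its protein-coding transcripts that hold the homeobox stretch (green), with replicate 1 as circles and replicate 2 as squares. The green bar is at 75.5 TPM beside 141.3 TPM for Meis1, and at 0.72 TPM beside 44.7 TPM for Pbx4.

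Between the replicates, 4 of the 9 genes, Meis1, Meis2, Meis3 and Pbx2, were lower in replicate 2 than in replicate 1 by an exact binomial test of the counts with Benjamini-Hochberg adjustment over 17664 genes, and 0 were higher. The same test called 34.4% of all genes, 18.7% as lower and 15.7% as higher. Over both directions the share of the 9 is close to that background; by direction, 4 of 9 stand beside 18.7% lower and 0 of 9 beside 15.7% higher, with no test of that split. The p-values compare these libraries only, and the difference may be technical. The log2 ratio of replicate 2 to replicate 1 was -0.33 in Meis3 (adjusted p = 4.93e-15, exact binomial test), -0.26 in Meis2 (adjusted p = 3.30e-24), -0.34 in Pbx2 (adjusted p = 0.00873) and -0.09 in Meis1 (adjusted p = 0.000639). With a minimum of 1.5-fold the test called 0 of the 9, against 5.95% of all genes, 4.43% of them lower. It called 3 of the 9 with TMM factors, against 35.5% of all genes, 4 with DESeq2 size factors, against 35.1%, and 4 with no filter on low counts, against 23.2%. The authors' credibility intervals did not overlap for 3 of the 9, against 22.6% of all genes; Meis2 and Meis3 were lower, against 6.5%, and Pbx3 was higher, against 16.1%. Scaled by spike-in RNA, the test called 43.7% of all genes, 35.2% as higher and 8.46% as lower, and 4 of the 9. Of these Meis2 and Meis3 were lower, while Pbx3 (log2 ratio 0.15) and Pknox1 (0.12) were higher; Meis1 (0.034, adjusted p = 0.248, exact binomial test) was not called. All 5 meningeal or fibroblast markers were also lower in replicate 2, their sum being 730.41 TPM in replicate 1 and 605.18 TPM in replicate 2. The choroid plexus sum was lower as well, mostly through Ttr with 1824.8 and 1094.17 TPM, while Kl rose from 0.89 to 1.47 TPM. Progenitor and endothelial sums were slightly lower. Other sums were higher in replicate 2: red cell markers with 3950.98 and 4527.91 TPM, neuron markers with 2627.61 and 2754.08 TPM and microglial markers with 60.15 and 64.59 TPM. The part of any of these cell types in the Meis values was not tested.

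In replicates 1 and 2, retained intron transcripts summed to 14.27 and 7.37 TPM in Meis1, 15.42 and 8.57 TPM in Meis2, and 22.4 and 21.67 TPM in Meis3, so Meis3 differed little there. Over the 9 genes, retained intron transcripts held 11.1% and 8.80% of TPM, against 4.65% and 4.47% over all annotated transcripts. At mean counts of 10 or more, 59 transcripts of the 9 genes remained, and 6 of them had credibility intervals that did not overlap between replicates, all lower in replicate 2, against 11.9% of 42742 transcripts in either direction and 4.52% lower. These were Meis1-204 with 6.53 and 3.82 TPM, Meis1-205 with 7.74 and 3.55 TPM, Meis2-213 with 5.99 and 3.57 TPM and Meis2-207 with 1.73 and 0.72 TPM, all retained intron transcripts, and the coding transcripts Meis2-204 with 6.96 and 2.21 TPM and Meis3-201. The 4 came from 16 retained intron transcripts, against 7.23% lower, 0.839% higher and 8.07% in either direction of 7507 over all genes. Of these 16, 13 were lower in replicate 2, or 81.2%, beside 62.8% over all genes.

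Some of the loci overlap other genes, and the strand setting of the counting is not given in the sources used here, so reads from antisense partners cannot be told apart. Gm16141, antisense to Meis1, had 13.74 and 9.63 TPM, and Gm16140, also antisense, had 1.31 and 1.85 TPM. On the Meis1 strand lie 2610001A08Rik, with 5.48 and 3.86 TPM, Gm37818 and 2900018N21Rik. Gpsm3 overlaps Pbx2 on its strand and had 3.75 and 3.45 TPM, which is of the order of Pbx2 itself. C79798, antisense to Pbx3, had 0.91 and 0.27 TPM, and Gm3896, antisense to Pknox2, 0.34 and 0.27 TPM. For Meis2, Meis3, Pbx4 and Tgif1 the annotation has no overlapping gene.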

How the data were processed

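Total RNA-seq of 2 hindbrain libraries (10 ng RNA longer than 200 nt each, per the labels) was analysed from the deposited gene and transcript tables. Per the labels and the accompanying descriptions, the authors used mm10 and GENCODE M4. The sources used here do not give the aligner, the quantifier or the strandedness. The deposited expected counts are the authors' estimates of reads, not normalised. The deposited TPM, as the authors computed it, sums over every feature, with 96 spike-in RNAs among them. The deposited FPKM values were scaled by length and reads. The deposited percent of a gene per transcript was used only as an alternative. The deposited posterior means and credibility bounds, used as score values, surround the posterior mean, so a TPM can lie outside them; their level is not stated in the files.

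Symbols were matched for 42462 of 43346 genes. Coordinates, transcript names and sequences came from GENCODE M21 (GRCm38), in which 85 of the 92 transcripts of the 9 genes have the same length. Other Pbx genes were not analysed here. The members and lists were chosen with earlier results of these data known. All 9 genes are named, with every transcript of at least 5% of its gene, and from each list the 3 highest genes and, where 4 or fewer, those below 1 TPM in both replicates; a result that this rule takes is not reported here. Libraries were compared by an exact binomial test (two-sided) on rounded counts, scaled by gene totals, for genes averaging 10 counts or more. The p-values were Benjamini-Hochberg adjusted (threshold 0.05). The test was tested on simulated data whose only noise was counting noise, so that check does not cover other variation between libraries. The test asks whether the libraries differ beyond counting noise, and reads are not independent molecules. Log2 levels used a pseudocount of 1. Alternatives were size factors of DESeq2 1.42.0, TMM factors of edgeR 4.0.16, spike-in scaling, other detection limits, pseudocounts and filters, FPKM, posterior means and each replicate alone. Calculations used R 4.3.3 and Python 3.11.15 with pandas 2.3.3, scipy 1.17.1, numpy 2.4.6 and matplotlib 3.10.9.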

Additional observations from a re-analysis of the deposited data

How the results depend on the processing

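The 9 genes stayed detected at limits of 0.5 and 2 TPM, and 7 reached 10 TPM; leaving out each replicate gave 9. The median log2 level of the 9 was 5.51, against 5.69 without spike-in, mitochondrial and ribosomal RNA and 4.79 in FPKM, and 5.44 to 5.58 with each replicate left out. The order of the genes held in every setting for levels except without replicate 2, where Meis2 stood above Pbx3 and 7 genes kept their place. Pseudocounts, FPKM and the removal of RNA classes keep the order within a library, so those settings could hardly change it. Expected counts were not among these settings. By them Pbx4, with 587 and 500 in replicates 1 and 2, was below Pknox2, with 1418 and 1303. The Meis1 share of the Meis sum was 41.2%, 44.4% by expected counts and 39.4% to 43.0% with each replicate left out. Expected counts moved other family shares further: Pbx4 to 7.41% beside 24.8%, Pbx3 to 87.8% beside 71.3%, Meis3 to 14.9% beside 24.7% and Meis2 to 40.7% beside 34.0%. The median share of the main transcript was 52.2%, 59.3% by expected counts and 50.2% to 54.3% with each replicate left out. The lists held 53 detected genes of 63, and 51 to 58 under other limits.

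The 4 calls between libraries fell to 0 with a 1.5-fold minimum, a rule that can only remove calls. The largest of the 4 differences was 1.27-fold, in Pbx2, while 5.95% of all genes were still called. The Meis1 log2 ratio turned to 0.034 with spike-in scaling, and with TMM factors Meis1 was no longer called (adjusted p = 0.0527 in the exact binomial test); the cause was not tested. Of the values with the coding homeobox, 14 of the alternative values moved by more than the spread between replicates and 22 did not. For the exon shares 8 moved and 24 did not. With 2 replicates, leaving 1 out always shifts the mean by less than their SD, so those settings could not count as moved. They are among the 22 and the 24, which are therefore no measure of stability. Pbx4 with the coding homeobox came to 3.93% by counts. No paired analysis was possible because both samples belong to 1 group. With 2 libraries of 1 group, differences between replicates have no test beyond counting noise, and transcripts that share most exons are limited by the authors' assignment of reads.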
